A study of Mus musculus with 6 samples.

Results

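The osteoblast lineage transcription factors and cofactors examined here are 8 genes that regulate the commitment of mesenchymal cells to bone-forming and cementum-forming fates. They were picked by name, as Runx1, Runx2, Cbfb, Sp7, Nfic, Twist1, Twist2 and Zfp521, and all 8 were found among the 17213 gene symbols of the count table. All 8 also passed the filter on low counts that left 14632 genes for testing. The cells came from mouse mandibular molars at postnatal day 8 and belong to the dental follicle, a sac of connective tissue that encloses a tooth before it erupts. Cells carrying the red fluorescent protein tdTomato, which the labels describe as marking PTHrP-positive follicle cells, were sorted and their RNA was amplified. The 3 libraries titled Het have the genotype Pth1r(+/-) and the 3 titled KO have Pth1r(-/-), a conditional loss of the receptor for PTH and PTHrP that was started with tamoxifen in both groups. So the controls also carried 1 inactivated allele, and no library came from untreated or wild-type animals. The tamoxifen pulse is dated to day 3 in the series text and to day 8 in the sample descriptions. The labels do not name the Cre driver, do not say whether animals were pooled and do not state that replicates are separate animals, so a p-value here reflects the spread among these 6 libraries, which may be partly technical. Values for a group are always given in the order of replicates 0, 1 and 2, and groups are called Het and KO by their titles.

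RUNX proteins bind DNA through the Runt domain and do so strongly only with CBFB, a partner that makes no DNA contact of its own. RUNX2 is required for osteoblast formation, and SP7, also called osterix, is a zinc finger factor that acts downstream of it. TWIST1 and TWIST2 are basic helix-loop-helix proteins that hold RUNX2 activity back in skeletal precursors, ZFP521 is a large zinc finger protein that antagonises RUNX2, and NFIC is needed for the growth of molar roots. In the follicle these factors act in cells that can form alveolar bone, cementum or periodontal ligament.

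Promoter sequences ran from 250 bases before to 50 bases after a transcription start. They were taken from the RefSeq table (GRCm38.p6, the assembly of mm10) for 6 of the 8 genes, with 7 start sites. Sp7 had no entry there and Zfp521 was left out of the search, so neither is covered. The sequences are shown here because 2 members share a tandem RUNX-type motif. Another reason is that the 2 Twist genes had the most similar profiles across libraries of any pair of members. The motif TGTGGT, searched on both strands, was present in 16.8% of 32851 promoters of this length. It occurred 2 times in the distal Runx1 promoter, 28 and 36 bases after the start, and 3 times in the Runx2 promoter, 23 and 31 bases after the start and once further upstream. The 30-base stretches with the paired motifs, both on the minus strand at chr16:92826025-92826054 and chr17:44814583-44814612 and both inside an annotated first exon, carry the motif in capitals, read from its complementary strand.
Runx1: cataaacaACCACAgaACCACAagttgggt
Runx2: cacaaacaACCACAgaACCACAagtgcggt
The longest run of identical bases between these promoters was 22 bases, against at most 14 bases in the other pairs among 21 pairs of member promoters. The proximal Runx1 promoter and those of Cbfb, Nfic, Twist1 and Twist2 had no TGTGGT in this window. Counts over a whole gene do not separate its start sites, so the values below do not show which promoter was in use.

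Upstream of the start sites of Twist1 (chr12:33957421-33957670, plus strand) and Twist2 (chr1:91801211-91801460, plus strand), the 250 bases held GC boxes, GGGCGG on either strand, which are shown in capitals.
Twist1: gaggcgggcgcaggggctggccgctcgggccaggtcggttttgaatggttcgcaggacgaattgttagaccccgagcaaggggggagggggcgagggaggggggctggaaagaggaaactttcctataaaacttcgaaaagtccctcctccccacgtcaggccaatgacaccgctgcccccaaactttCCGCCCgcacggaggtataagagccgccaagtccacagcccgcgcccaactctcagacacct
Twist2: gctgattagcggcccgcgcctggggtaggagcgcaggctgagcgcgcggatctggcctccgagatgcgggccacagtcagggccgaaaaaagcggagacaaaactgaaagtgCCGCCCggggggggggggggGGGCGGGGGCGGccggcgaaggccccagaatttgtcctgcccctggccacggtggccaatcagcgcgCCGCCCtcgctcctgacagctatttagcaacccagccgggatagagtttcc
There was 1 GC box in Twist1 and 4 in Twist2, and 35.7% of all promoters in the table held at least 1. Neither promoter held an E-box (CANNTG), the motif that basic helix-loop-helix proteins bind, which was present in 72.3% of promoters.

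Total counts lay between 34019925 and 66147200 per library. Het replicate 2 was separated from the rest on the first principal component, which held 38.6% of the variance. Levels are CPM, counts scaled to TMM-adjusted library size, unless another unit is named. Xist, the transcript that silences an X chromosome in female cells, had 0.145 CPM in 1 Het library (replicate 0), stood at 0.230 CPM in 1 KO library (replicate 1) and at 23.6 CPM or more in the other 4. Pth1r, the gene targeted in the KO libraries, was not lower in them. It was at 371, 286 and 346 CPM in the Het libraries and at 961, 608 and 472 CPM in the KO libraries. That is a log2 fold change of 1.02 (SE 0.28), with an adjusted p of 0.740 in edgeR and 0.0457 in DESeq2. Gene-level counts cannot tell transcripts with the deletion from intact ones, and all directions below are those of the libraries labelled KO against those labelled Het. The follicle markers Pthlh (260.0 to 349.6 CPM) and Postn (431 to 879 CPM) were detected in all 6 libraries.

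No member passed the test. Under edgeR's quasi-likelihood test with Benjamini-Hochberg adjustment over all genes, 0 of the 8 members had an adjusted p under 0.05, beside 0 of 14632 genes (0% called). Unadjusted, 0 of the 8 had a p under 0.05, against 4.29% of all genes. DESeq2 also called 0 of the 8 while calling 0.473% of its tested genes, and limma-voom with quality weights called 0. Fitted values were higher in the libraries labelled KO for Runx1, Runx2, Cbfb, Sp7 and Nfic and lower for Twist1, Twist2 and Zfp521. The median log2 fold change was 0.13 over the 8 members and -0.01 over all genes. In bulk RNA, fewer cells of a type and less RNA per cell cannot be told apart, here or in the values that follow.

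**Figure D1:**
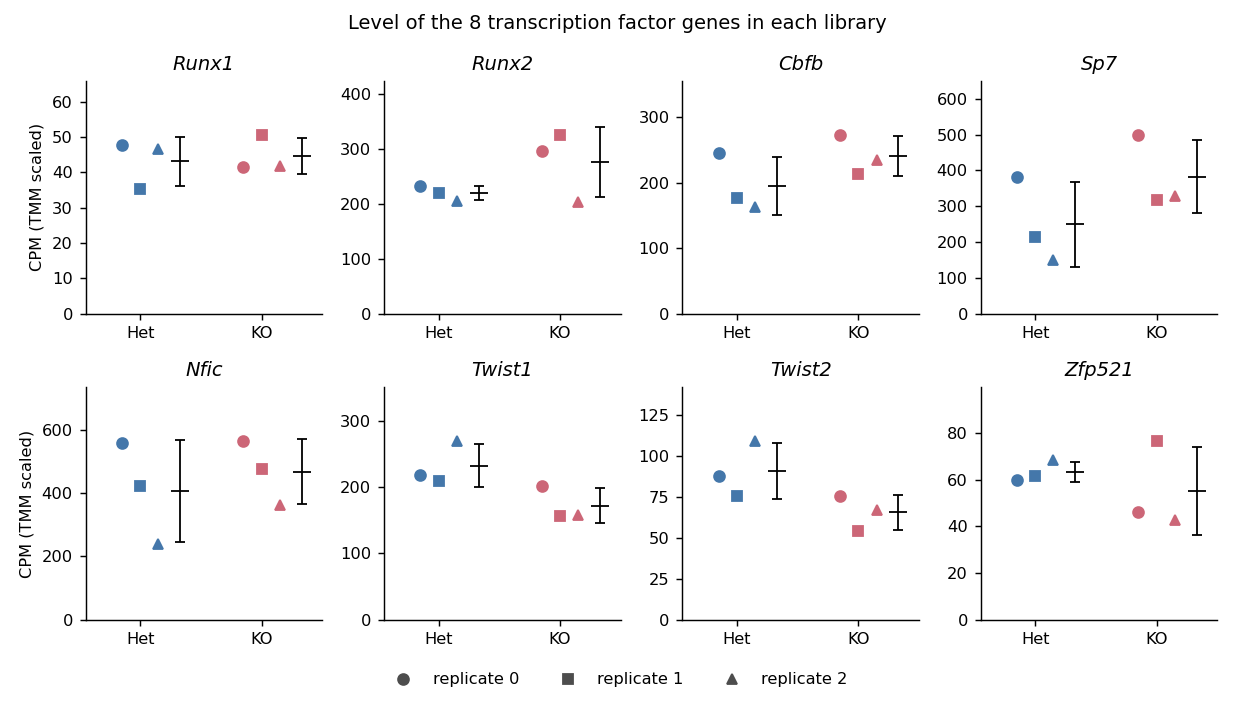
Each panel shows 1 gene, with TMM-scaled CPM on a linear axis from 0. Symbols are single libraries, shaped by replicate number, and black bars give the mean ± SD of 3 libraries. Only the Twist1 and Twist2 panels show groups without overlap, both lower in the libraries labelled KO.

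The Twist genes were the only 2 members whose groups did not overlap, and both were lower in the libraries labelled KO. Twist1 (chromosome 12, 33957671 to 33959829, plus strand of mm10) stood at 219, 209 and 269.8 CPM in the Het libraries and at 202, 157 and 158 CPM in the KO libraries. The highest of the KO libraries, replicate 0, lay just under the lowest of the Het libraries, replicate 1. Means were 232 ± 32.9 and 172 ± 25.5 CPM (SD, n = 3 each), a log2 fold change of -0.43 with a 95% interval from -0.87 to 0.01 (edgeR adjusted p = 0.976).

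Twist2 (chromosome 1, 91801461 to 91848028, plus strand) was at 87.8, 75.2 and 109 CPM in the Het libraries and at 75.2, 54.3 and 66.6 CPM in the KO libraries. Here the groups touched, since Het replicate 1 and KO replicate 0 were equal to 3 digits. The means of 90.5 ± 16.8 and 65.3 ± 10.5 CPM (SD, n = 3 each) gave a log2 fold change of -0.47 with a 95% interval from -0.96 to 0.02 (edgeR adjusted p = 0.976). Over all genes tested, 4.83% were lower without overlap and 5.84% higher without overlap. The 2 members without overlap were the same under TMM, RLE and library-size scaling and in FPKM.

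The 2 Twist genes also ranked the 6 libraries in the same order, from Het replicate 2 at the top to KO replicate 1 at the bottom. Their log2 ratio of counts, which does not depend on how libraries are scaled, was 1.32, 1.47 and 1.31 in the Het libraries and 1.42, 1.54 and 1.25 in the KO libraries. It spanned 0.29 log2 units over all 6 libraries and differed by 0.04 between group means. Het replicate 2, the library that stands apart, was the highest for both genes. Without it the log2 fold changes were -0.31 for Twist1 and -0.32 for Twist2. The 10 markers of pericytes and smooth muscle, all detected in every library, were also lower without overlap when summed, at 1177 to 1247 CPM in the Het libraries and 857 to 1042 CPM in the KO libraries. Most of that sum came from the smooth muscle actin gene Acta2, at 708 to 814 CPM in the Het libraries and 487 to 569 CPM in the KO libraries. Tagln was also lower without overlap, at 145 to 210.1 CPM against 83.1 to 95.5 CPM. The other markers of the list had overlapping groups. Among these, Pdgfrb (Het 61.9 to 120.5 CPM, KO 82.2 to 193 CPM) and Cspg4 (Het 18.8 to 47.5 CPM, KO 32.5 to 80.4 CPM) had higher ranges in the KO libraries. The lower sum thus did not extend to all its markers. The part of such cells in the Twist values was not tested.

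Sp7 had the largest fitted difference of the 8 members, and also the largest spread. The gene (chromosome 15, 102356606 to 102367182, minus strand) was at 381, 215 and 151 CPM in the Het libraries and at 499.7, 318 and 329.6 CPM in the KO libraries. Its libraries differed 3.31-fold from lowest to highest, and Het replicate 0 lay above 2 of the 3 KO libraries. Means were 249 ± 119 and 382 ± 102 CPM (SD, n = 3 each), a log2 fold change of 0.62 with a 95% interval from -0.16 to 1.39 (edgeR adjusted p = 0.976). It became 1.05 without Het replicate 0, 0.37 without Het replicate 2 and 0.40 without KO replicate 0.

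Runx2 was nearly level across the Het libraries and split within the KO libraries. The gene (chromosome 17, 44495987 to 44814797, minus strand) was at 232, 220.2 and 206 CPM in the Het libraries and at 297, 326 and 204 CPM in the KO libraries. KO replicates 0 and 1 were above all Het libraries, and KO replicate 2 was the lowest of all 6. Means were 219 ± 12.7 and 276 ± 63.7 CPM (SD, n = 3 each), a log2 fold change of 0.33 with a 95% interval from -0.15 to 0.81 (edgeR adjusted p = 0.976). It became 0.51 without KO replicate 2 and 0.19 without KO replicate 1. On the opposite strand Runx2 overlaps Supt3, a transcription cofactor gene, and antisense transcripts, and the strand setting of the counting is not given in the sources used here, so reads from the opposite strand cannot be told apart.

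Sp7 and Runx2 did not keep a fixed ratio. The log2 ratio of Sp7 to Runx2 counts was 0.72, -0.03 and -0.45 in the Het libraries and 0.75, -0.04 and 0.69 in the KO libraries. It thus spanned 1.20 log2 units, the widest of the 4 ratios computed, and the libraries numbered 0 and those numbered 1 gave nearly the same value in both groups. Group means were 0.08 ± 0.59 and 0.47 ± 0.44 (SD, n = 3 each; exact two-sided permutation p = 0.5, and 1 after adjustment over the 4 ratios). The difference of 0.39 became 0.13 without Het replicate 2, 0.71 without Het replicate 0, 0.64 without KO replicate 1, 0.25 without KO replicate 0 and 0.01 without both libraries numbered 2. The smallest p that 3 against 3 libraries allow is 0.1.

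Cbfb, the shared partner of the RUNX proteins, was fitted higher in the libraries labelled KO, with overlapping groups. Cbfb (chromosome 8, 105170674 to 105217989, plus strand) was at 245, 177 and 162 CPM in the Het libraries and at 273, 213 and 234 CPM in the KO libraries. Het replicate 0 lay inside the KO range and the other 2 Het libraries below it. The Het mean was 195 ± 44.3 CPM and the KO mean 239.8 ± 30.3 CPM (SD over 3 libraries). On the log2 scale the difference was 0.30 with a 95% interval from -0.18 to 0.79, and it became 0.49 without Het replicate 0 and 0.19 without Het replicate 2. Relative to Runx2, Cbfb stood at group means of -0.19 and -0.18 log2 units, a difference of 0.01 (exact permutation p = 1, n = 3 each).

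Runx1, better known from blood cell formation, was the member closest to no difference. Runx1 (chromosome 16, 92601466 to 92826149, minus strand) was at 47.8, 35.2 and 46.6 CPM in the Het libraries and at 41.6, 50.7 and 41.8 CPM in the KO libraries. The groups overlapped, with a log2 fold change of 0.05 (95% interval -0.43 to 0.53). The direction turned when Het replicate 1 (-0.08) or KO replicate 1 (-0.05) was left out. The log2 ratio of Runx1 to Runx2 was -2.36 ± 0.26 in the Het libraries and -2.60 ± 0.28 in the KO libraries (SD, n = 3 each; exact permutation p = 0.2). Of 16 macrophage and leukocyte markers, 14 were in the table, with summed levels of 26.0 to 111 CPM in the Het libraries and 33.4 to 181 CPM in the KO libraries. The 9 markers of lymphoid and other blood cells in the table summed to 129.7 to 574 CPM in the Het libraries and 107 to 208 CPM in the KO libraries. Kit was the largest part of that sum in every library, at 126 to 269 CPM in the Het libraries and 93.6 to 194 CPM in the KO libraries. Mpo (228 CPM) and Elane (66.2 CPM) added to it in Het replicate 1, the library with the lowest Runx1. They were also present in Het replicate 2, at 52.4 and 33.8 CPM, where Runx1 was not low (46.6 CPM). In the remaining libraries both were at 1.07 CPM or less. The part of blood cells in the Runx1 values was not tested.

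The fitted values of Nfic and Zfp521 depended on single libraries. Nfic (chromosome 10, 81396186 to 81455635, minus strand) was at 559, 424 and 238 CPM in the Het libraries and at 565, 477 and 362 CPM in the KO libraries. The lowest library was Het replicate 2, and without it the log2 fold change of 0.20 (95% interval -0.51 to 0.91) became -0.06. Zfp521 (chromosome 18, 13687013 to 13972787, minus strand) was at 60.0, 61.5 and 68.2 CPM in the Het libraries and at 46.0, 76.6 and 42.6 CPM in the KO libraries. The 3 KO libraries enclosed the narrow Het range, with replicate 1 above it and the other 2 below. The Zfp521 log2 fold change was -0.20 (95% interval -0.77 to 0.37), -0.51 without KO replicate 1 and -0.04 without KO replicate 2.

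**Figure D2:**
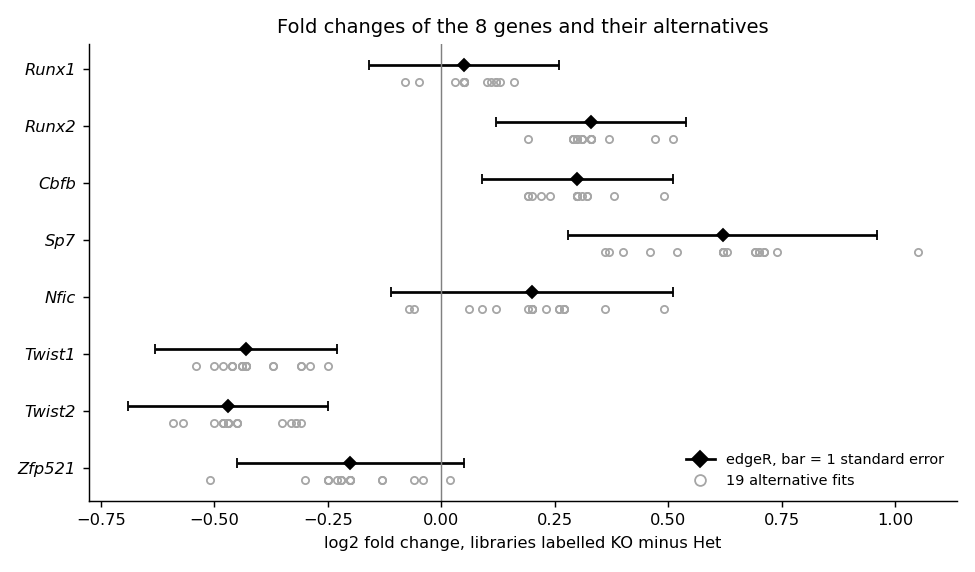
Black diamonds are log2 fold changes from edgeR, KO minus Het, with bars of 1 standard error, and open circles are the 19 alternative fits. The circles of Runx2, Cbfb and Sp7 are all above 0 and those of Twist1 and Twist2 all below 0, while those of Runx1, Nfic and Zfp521 fall on both sides.

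**Figure D3:**
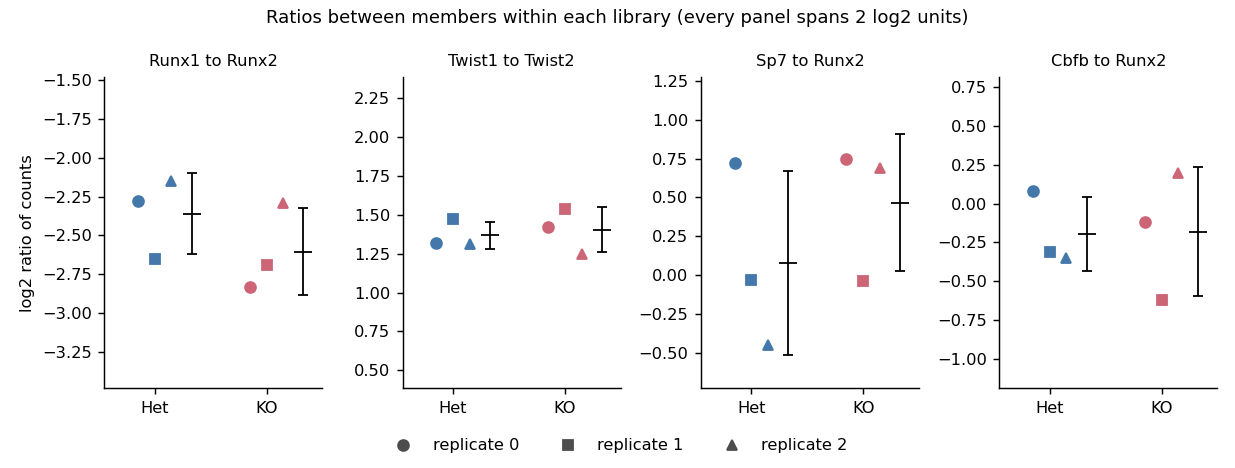
Each panel gives the log2 ratio of the counts of 2 members in each library, with black bars for the mean ± SD of 3 libraries and the same span of log2 units in each panel. Twist1 to Twist2 spans 0.29 log2 units and Sp7 to Runx2 spans 1.20.

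Between genes, levels were compared in FPKM, which is scaled by transcript length. The order of mean FPKM over the 6 libraries was Twist1 (165 ± 37.4), Sp7 (149 ± 56.8), Twist2 (76.7 ± 18.2), Cbfb (71.2 ± 27.8), Nfic (70.6 ± 18.4), Runx2 (39.2 ± 14.0), Zfp521 (8.85 ± 2.08) and Runx1 (5.91 ± 1.67), with the SD over all 6 libraries. Runx2 and Zfp521 were the only neighbours in this order whose ranges did not overlap. Nfic was above Runx2, and Zfp521 above Runx1, in 6 of 6 libraries despite overlapping ranges. Twist1 was above Sp7 in 2 of 6 libraries, Twist2 above Cbfb in 3 of 6, Cbfb above Nfic in 4 of 6 and Sp7 above Twist2 in 5 of 6. Part of the order turned between groups. Twist1 had a mean of 192 FPKM against 117 for Sp7 in the Het libraries, and 139 against 181 in the KO libraries. In Het replicate 0, however, Sp7 was already slightly above Twist1 (178 against 175 FPKM). Twist1 was above Sp7 in Het replicate 1 (171 against 104 FPKM) and most clearly in Het replicate 2 (230.4 against 69.1 FPKM). Twist2 had a mean of 88.8 FPKM against 64.9 for Cbfb in the Het libraries, and 64.6 against 77.4 in the KO libraries. The Het means of these 2 genes differed mainly through Het replicate 2, with 108 FPKM for Twist2 and 31.5 for Cbfb. Het replicates 0 and 1 had 82.0 and 76.1 FPKM for Twist2 and 91.0 and 72.1 for Cbfb. In both libraries numbered 2 the FPKM of Cbfb was low relative to its counts, as described below. Among the 12276 genes with an FPKM of at least 1 in 3 libraries, Twist1 was at percentile 95.4 and Runx1 at percentile 32.7.

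For the RUNX genes and Cbfb, FPKM and counts diverged in the libraries numbered 2. The number of counts per unit of FPKM was taken relative to the median gene of the same library. It can move with the transcript length that the FPKM values assume, but need not reflect length alone. For Cbfb it was 1.03, 0.926 and 1.77 in the Het libraries and 0.998, 0.937 and 1.82 in the KO libraries. For Runx1 it was 2.62, 2.24 and 3.76 in the Het libraries and 2.55, 2.27 and 3.79 in the KO libraries. Runx2 had 3.02 and 2.92 in the libraries numbered 2 and 1.99 to 2.37 in the other 4. So the mean in the libraries numbered 2 was 1.85 times that of the others for Cbfb, 1.56 times for Runx1 and 1.37 times for Runx2. It was 0.86 to 1.02 times for the other 5 members. Of these, Zfp521 lay between 2.40 and 2.51 in all libraries. Sp7, Twist1, Twist2 and Nfic were lower in both libraries numbered 2 than in each of the other 4, at 0.86 to 0.92 times.

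This property followed the replicate number and not the genotype label, and it was common. Of 10576 genes, 23.1% had counts per FPKM at least 1.25 times higher in both libraries numbered 2, without overlap with the other 4, against 4.95% for the libraries numbered 1 and 1.71% for those numbered 0. The shares lower by the same factor were 24.4%, 12.2% and 1.04% for the numbers 2, 1 and 0. The 3 of 8 members that met this rule, which was chosen after their values were seen, are to be read against that share. The FPKM of Cbfb in KO replicate 2 was 44.7, below the 72.1 of Het replicate 1, while its CPM was higher, at 234 against 177. Its annotated coding transcripts in GENCODE M21 range only from 2487 to 2891 bases, whereas those of Runx2 range from 440 to 6463 bases. The annotation behind the FPKM values is not given in the sources used here, and the part of transcript choice was not tested.

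**Figure D4:**
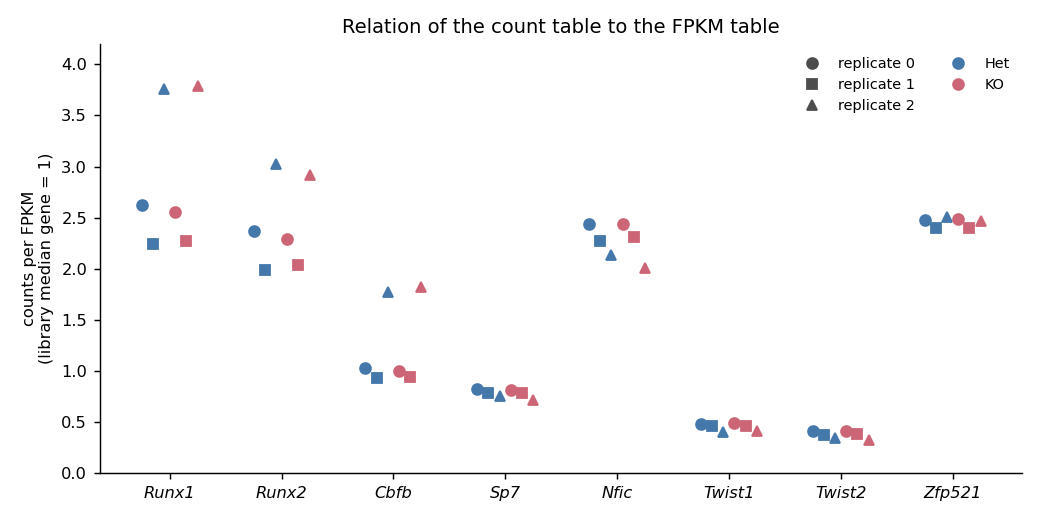
Counts per unit of FPKM are shown for each gene and library, divided by the median gene of that library, with colour for the group and shape for the replicate number. Triangles, the libraries numbered 2, stand above the rest for Runx1, Runx2 and Cbfb in both groups.

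The genes with profiles closest to a member, by the root mean square difference of log2 CPM after each gene's own mean over the 6 libraries was removed, were found among 8030 candidates. For Runx2 they included Rnf40 (0.057), a ubiquitin ligase subunit, and Cdh11 (0.0675), the osteoblast cadherin, both in log2 units. For Sp7 they were Farp2 (0.0808), Zfp36 (0.105) and Rcc1 (0.106), and for Twist1 they were Dpep1 (0.0666), Mif4gd (0.0744) and Iars2 (0.0750). Among the 28 pairs of members, Twist1 and Twist2 were closest (0.101), followed by Runx1 and Runx2 (0.253), and Sp7 and Twist2 were the farthest apart (0.763). With 6 libraries and 8030 candidates these are descriptions only.

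Genes downstream of RUNX2 and SP7 were mostly fitted higher in the libraries labelled KO. Of 18 targets from mineralising cells, all tested, 0 passed edgeR in either direction. Fitted values were higher for 17 and lower for 1, where 49% of all genes were fitted higher. The median log2 fold change was 0.66 against -0.01 over all genes. Unadjusted, 5 of the 18 had an edgeR p under 0.05, against 4.29% of all genes. DESeq2 called 3 of the 18, Spp1, Dmp1 and Tnfrsf11b, against 0.473% of its tested genes. Dmp1, a matrix phosphoprotein, was at 72.4, 29.0 and 84.8 CPM in the Het libraries and at 536, 248 and 138 CPM in the KO libraries. Tnfrsf11b, the decoy receptor osteoprotegerin, was at 37.0, 29.3 and 25.2 CPM against 63.3, 68.0 and 77.3 CPM in the same order. For both, every library labelled KO was above every library labelled Het (edgeR adjusted p = 0.634 for each), as for 5.84% of all genes. Col1a1, the most abundant, had means of 19915 and 30756 CPM with overlapping groups. The targets were listed with earlier results of these data known, so their direction is no independent evidence.

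The 10 markers of osteoblasts and cementoblasts, 9 of them also among the targets, summed to 6685, 4653 and 11734 CPM in the Het libraries and to 20767, 12357 and 15307 CPM in the KO libraries. Most of each sum came from the bone sialoprotein gene Ibsp, at 4071, 3111 and 10455 CPM in the Het libraries and 16421, 9710.4 and 12516 CPM in the KO libraries. Without Ibsp the sum was 2614, 1543 and 1279 CPM in the Het libraries and 4346, 2646 and 2791 CPM in the KO libraries. It was lowest in Het replicate 2, as were Sp7, Cbfb and Nfic. Alpl, the gene of the mineralising enzyme alkaline phosphatase, was at 1946, 1046 and 922 CPM in the Het libraries and at 2777, 1578 and 1852 CPM in the KO libraries. This is the library order of Sp7 and equally that of Cbfb, so the order is not particular to mineralising genes. The part of the number of mineralising cells in the values of Sp7 and Runx2 was not tested.

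Partners and relatives of the members were fitted in both directions. Of 20 RUNX partners and regulators, 0 passed edgeR, 10 had higher and 10 lower fitted values, and the median was 0.02. The corepressor gene Aes was the most abundant at 773 ± 79.5 and 714 ± 62.4 CPM in the Het and KO libraries (SD, n = 3 each). The corepressor gene Cbfa2t2 was at 275 CPM in Het replicate 2 and at 46.6 to 74.3 CPM in the other 5, and its log2 fold change of -1.06 became 0.06 without that library. Of 10 tested TWIST partners and related genes, 0 passed, 7 were fitted higher and 3 lower, with a median of 0.12. The E-protein gene Tcf3, a dimer partner of TWIST proteins, was at 275 ± 92.7 and 351 ± 20.3 CPM, and Id3, which sequesters E-proteins, at 488 ± 256 and 676 ± 160.0 CPM, both with overlapping groups. Msc, the gene of musculin, had means of 7.66 and 4.28 CPM.

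Zfp423, the paralogue of Zfp521, had the smallest unadjusted p of the list it belongs to (0.00634, edgeR). It was at 12.4, 5.32 and 4.19 CPM in the Het libraries and at 27.5, 24.8 and 15.1 CPM in the KO libraries. No library labelled Het reached the lowest library labelled KO, and the log2 fold change was 1.62 (SE 0.45, edgeR adjusted p = 0.813, DESeq2 adjusted p = 0.102). Zfp521 had its fitted value in the other direction, and the difference between the 2 paralogues was not tested. Of the 5 genes in this list 0 passed, 3 fitted higher and 2 lower, with a median of 0.16, and Ebf1 was at 58.8 ± 37.0 and 49.0 ± 11.0 CPM (SD, n = 3 each), with a direction that turned (0.38) without Het replicate 2.

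Of the 3 other NFI family genes 0 passed, with 1 fitted higher and 2 lower and a median of -0.17. Nfix was at 665 ± 117 and 592 ± 67.9 CPM and Nfia at 23.1 ± 7.76 and 18.0 ± 3.57 CPM in the Het and KO libraries (SD, n = 3 each). Both were highest in Het replicate 2, the library in which Nfic was lowest. Without both libraries numbered 2 the directions of Nfia (0.02) and Nfix (0.08) turned.

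Of 13 tested SP and KLF genes 0 passed, with 10 fitted higher, 3 lower and a median of 0.22. Klf4 was at 91.9 ± 24.3 and 151 ± 41.3 CPM and Klf2 at 185 ± 40.8 and 301 ± 114 CPM (SD, n = 3 each), with overlapping groups. Sp6, the most abundant and known from dental epithelium, was at 171 CPM in Het replicate 2 and at 487 to 858 CPM elsewhere. Its log2 fold change of 0.33 became -0.08 without that library. The 10 dental epithelium markers were all detected in every library and summed to 5745 to 8729 CPM in the Het libraries and 5439 to 11245 CPM in the KO libraries, and their part in these values was not tested.

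Of 19 other fate factors 0 passed edgeR, with 10 fitted higher, 9 lower and a median of 0.04. Mef2c, a MADS-box factor of osteocytes among other cells, was at 172, 139 and 83.2 CPM in the Het libraries and at 318, 315 and 217 CPM in the KO libraries, without overlap. Its adjusted p was 0.734 in edgeR and 0.0410 in DESeq2. Pparg, the regulator of the fat cell fate, was lower without overlap at 5.87 ± 1.60 against 10.4 ± 2.44 CPM in the Het libraries (SD, n = 3 each; edgeR adjusted p = 0.976), and Junb, the most abundant of the list, had means of 2052 and 2732 CPM.

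**Figure D5:**
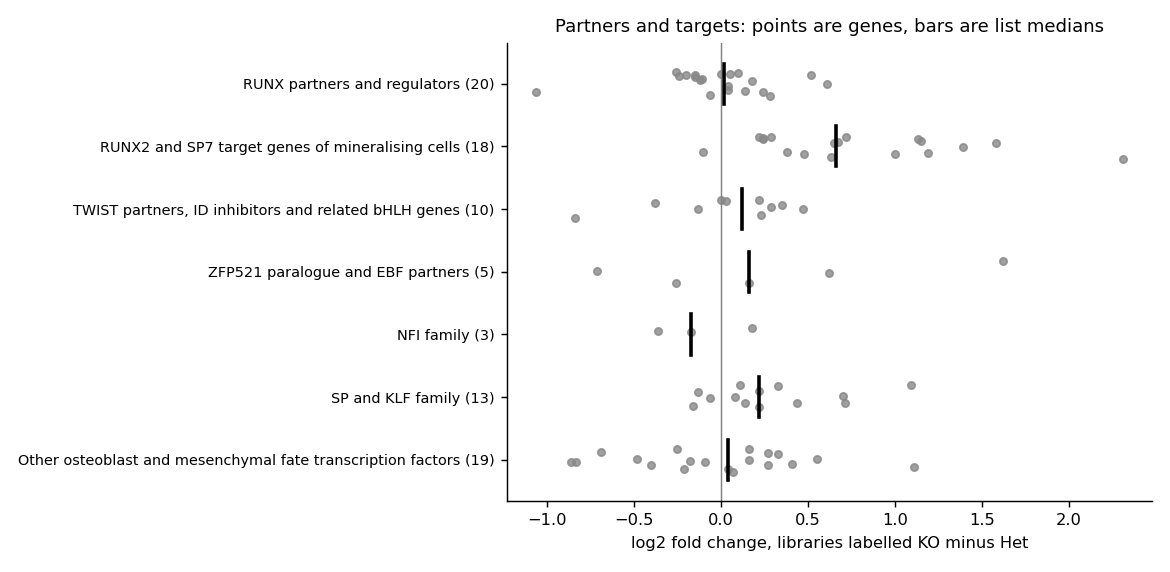
Points are the log2 fold changes of single genes, KO minus Het, in 7 lists of partners and targets, with the number tested in brackets and a black bar at each median. The targets of RUNX2 and SP7 lie mostly above 0, with a median of 0.66, and the other medians lie between -0.17 and 0.22.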

How the data were processed

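RNA was measured in 6 libraries, 3 per genotype. The whole-number counts per gene symbol were used as the authors deposited them. A second deposited table holds estimated counts, of which 1.66% were not whole within 1e-06, and these were rounded. Another deposited table holds FPKM values as the authors computed them. Per the submitters' processing notes, the genome was mm10 and the tools, with no roles given, were HTSeq, DESeq2, Cuffdiff, Cufflinks, Bowtie2 2.2.1, TopHat2 2.0.13 and FastQC. Amplified reads without molecular identifiers are not independent molecules. In all pairs of libraries, counts differed beyond sampling noise (chi-square over its degrees of freedom, at least 94.2). None was therefore taken as the same library sequenced again. Noise from amplification is not part of this measure, so it cannot tell separate amplifications of the same RNA from separate animals.

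Counts were fitted with edgeR 4.0.16 (R 4.3.3; TMM, default filter, quasi-likelihood test, two-sided, Benjamini-Hochberg threshold 0.05). Standard errors came from the F statistic. Ratios used counts plus 0.5. DESeq2 1.42.0 and limma 3.58.1 (log2(FPKM + 1), log2(FPKM + 0.1), voom) were alternatives, with RLE scaling, other filters, the estimated counts, the replicate block and each library left out. On the log2(FPKM + 1) scale a fold change understates the change of low genes. Fits were tested on simulated data. The 8 genes and the 7 lists were chosen with earlier results of these data known. Always named were the members and Pth1r, then per list the 2 tested genes with the smallest p and the most abundant one, and the 3 closest profiles (mean log2 CPM of at least 4) to Runx2, Sp7 and Twist1. Of the genes this rule names, 2 are not reported here. Positions came from GENCODE M21, promoters from RefSeq.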

Additional observations from a re-analysis of the deposited data

How the results depend on the processing

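The count of 0 members past the threshold held in all 19 alternatives, and the lowest adjusted p of any member was 0.0674, for Sp7 in DESeq2 with the replicate block. The 19 are not independent checks. The estimated counts of the members equalled their counts. Leaving out both libraries numbered 2, here and for the ratios, was chosen after seeing the data. Directions of Runx2, Cbfb, Sp7, Twist1 and Twist2 held in all 19. Those that turned were Runx1 (-0.08 when Het replicate 1 and -0.05 when KO replicate 1 was left out), Zfp521 without both libraries numbered 2 (0.02), and Nfic without Het replicate 2 in edgeR (-0.06) and DESeq2 (-0.07). Without Het replicate 2, Cbfa2t2 became 0.06 in both tools, Sp6 -0.08 in both, and Ebf1 0.38 in both. Ebf1 was also 0.20 in voom and 0.51 without both libraries numbered 2, where Nfia was 0.02, Nfix 0.08 and Sp6 -0.38. With 1 library left out, log2 fold changes ranged from -0.08 to 0.13 for Runx1, -0.06 to 0.49 for Nfic, -1.46 to 0.06 for Cbfa2t2, -0.56 to 0.38 for Ebf1 and -0.08 to 0.61 for Sp6. The log2 ratio difference of Twist1 to Twist2 was -0.01 in FPKM and -0.03 to 0.11 with 1 library left out. That of Cbfb to Runx2 was -0.01 in FPKM, -0.17 to 0.23 with 1 library left out (-0.04 when that was Het replicate 1, -0.06 for Het replicate 2 and -0.02 for KO replicate 0), and -0.25 without both libraries numbered 2. Over all genes, edgeR called 0, against 69 in DESeq2, 1 (Cd200) under the filter of 1 CPM in every library and in voom, 1 in each of the 3 FPKM fits, and 0 to 1 with 1 library left out, the 1 being Elane without Het replicate 0. Of the listed partners and targets, edgeR called 0 and DESeq2 4 (Dmp1, Mef2c, Spp1 and Tnfrsf11b), against 0.473% of all genes that DESeq2 tested. The following DESeq2 fits were chosen after seeing the data. Without Het replicate 2 it called 155 of 14632 genes, 5 of them in the lists (Ibsp, Klf4, Mef2c, Spp1 and Tnfrsf11b). With the replicate block it called 173 of 14632 genes, 11 of them in the lists (Alpl, Col1a1, Dmp1, Ibsp, Ifitm5, Klf4, Mef2c, Smpd3, Spp1, Tnfrsf11b and Zfp423). The causes were not tested. Deviations of same-numbered libraries correlated at 0.17, 0.07 and 0.07 for the numbers 0, 1 and 2, not all above 0.1, so the numbers were not taken as pairs, although each library correlated best with its own number. With the replicate block, edgeR called 0 genes, and log2 fold changes were 0.69 for Sp7, 0.30 for Runx2 and -0.43 for Twist1. In all 3 same-numbered comparisons Sp7, Cbfb and Nfic were higher and Twist1 and Twist2 lower in the library labelled KO. For the Twist genes this follows from groups that do not overlap, and Nfic differed little for number 0 (565 against 559 CPM). The share of all genes with such agreement was not computed, so it does not back the directions. Each member had at least 1263 counts in every library. The log2 ratio difference of Runx1 to Runx2 ranged from -0.40 to -0.13 and that of Sp7 to Runx2 from 0.13 to 0.71 with 1 library left out.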
